A study of Homo sapiens with 12 samples.

Results

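The comparison described here was the interaction between cell line and *UGT2B17* expression, that is, whether raising *UGT2B17* changed a gene differently in MEC1 than in JVM2 cells. MEC1 and JVM2 are established human neoplastic B-cell lines. Transcripts were counted by RNA sequencing in 12 libraries, 3 per group, all of which entered the fit. The deposited tables of both lines shared 16052 genes, and 15130 of these passed the filter on low counts and were tested. MEC1-2B17 and JVM2-2B17 cells stably carried the *UGT2B17* coding sequence on the pcDNA6 plasmid, whereas JVM2-CTRL cells carried the empty plasmid and MEC1-CTRL cells carried an shRNA that lowers *UGT2B17*. In MEC1 the arms thus also differed in their construct and in the drug used to select them, with puromycin for MEC1-CTRL and blasticidin for the other arms. Line, construct and drug therefore cannot be told apart in the interaction. The study names the CHU de Québec Research center and Genome Québec as sequencing sites. The site of each library is not given, so site cannot be told apart from these either. Libraries of each line were deposited in a table of their own, and whether an arm is a clone or a pool of transfected cells is not given in the sources used here.

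UGT2B17 is a membrane-bound enzyme of the endoplasmic reticulum that attaches glucuronic acid to androgens and other small lipophilic molecules, which makes them more water soluble. B cells show peptides to helper T cells on MHC class II molecules, whose genes are switched on together by the coactivator CIITA acting with factors bound at the X and Y boxes of their promoters. When proteins fold poorly in the endoplasmic reticulum, the unfolded protein response raises chaperones and folding enzymes through promoter elements known as endoplasmic reticulum stress elements (ERSE), and the same program is strong in B cells that become antibody-secreting plasma cells. Signals from the B-cell receptor and from growth factor receptors switch on immediate early genes such as *EGR1* within minutes, followed by feedback inhibitors of the MAP kinase cascade such as the DUSP and SPRY families.

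As a check of the labels, *UGT2B17* itself (chr4:68537173-68576413) was measured at 11.2, 10.2 and 9.87 CPM in MEC1-CTRL, 21.5, 19.6 and 19.1 in MEC1-2B17, 31.9, 27.9 and 29.2 in JVM2-CTRL and 37.6, 48.6 and 37.8 in JVM2-2B17, where CPM is the count scaled to a common library size by TMM. Arms did not overlap in either line. The log2 fold change of 2B17 over CTRL was 0.95 ± 0.085 in MEC1 and 0.47 ± 0.096 in JVM2 (± SE). The target thus moved the same way in both lines, but further in MEC1 (1.93-fold) than in JVM2 (1.39-fold). Its interaction was 0.47 ± 0.13 (adjusted *P* = 0.0077, edgeR quasi-likelihood *F*-test). The part of this unequal rise in the other interactions was not tested. The deposited counts summed to 31762649 to 37744991 counts per library in MEC1 and 8809179 to 11231330 in JVM2, so that small changes are easier to call in MEC1. Estimated in each line alone, the biological coefficient of variation was 4.2% in MEC1 and 6.92% in JVM2. The fit of all libraries used a spread for each gene that the groups share. All 7 B-cell markers examined were present in both lines, while of the T-cell markers only *TRAC* appeared in both tables and *CD3D*, *CD3E* and *CD3G* did not. *TRAC* was lower in both 2B17 arms (11.1 to 11.9 CPM against 18.7 to 19.1 in MEC1, 32.0 to 40.0 against 45.2 to 50.0 in JVM2), and the summed epithelial markers, mostly *CDH1* in that line, were higher in MEC1-2B17 (43.2 to 46.5 CPM against 25.3 to 29.4) with overlap in JVM2. Their part in the results was not tested. NK-cell, myeloid and stromal markers summed to less than 6 CPM in every library. JVM2-2B17 replicate 2 stood apart from its group: its mean chi-square distance over genes was 8.49 and 8.72 to its partners, which differed from each other by 2.26. So did MEC1-CTRL replicate 3, at 9.21 and 7.38 to partners that differed by 2.64. Where a named gene left its class without JVM2-2B17 replicate 2, the value without that library is given beside the gene. A gene called in 1 line only is one whose change missed the threshold in the other line.

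Shown first are promoters chosen for holding a match to an element described for such genes. They come from the class II, endoplasmic reticulum stress and growth-signal groups, which held many opposite genes. Whether the marked elements had a part in the changes was not tested. Each line gives the 250 bases before the transcription start, 5′ to 3′, from RefSeq (GRCh38.p14). Capitals mark ERSE in *HSPA5* and *HSP90B1*, ERSE-II in *HYOU1*, X and Y boxes in *HLA-DQB1* and *HLA-DMA*, an X box in *HLA-DMB* and CArG boxes (bound by serum response factor) in *EGR1*.
HSPA5 (chr9:125241344-125241593, minus strand): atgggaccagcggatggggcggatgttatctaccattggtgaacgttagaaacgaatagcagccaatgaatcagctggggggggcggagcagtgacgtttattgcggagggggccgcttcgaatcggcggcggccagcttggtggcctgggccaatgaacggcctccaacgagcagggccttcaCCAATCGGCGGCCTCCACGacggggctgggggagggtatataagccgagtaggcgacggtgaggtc
HSP90B1 (chr12:103930160-103930409, plus strand): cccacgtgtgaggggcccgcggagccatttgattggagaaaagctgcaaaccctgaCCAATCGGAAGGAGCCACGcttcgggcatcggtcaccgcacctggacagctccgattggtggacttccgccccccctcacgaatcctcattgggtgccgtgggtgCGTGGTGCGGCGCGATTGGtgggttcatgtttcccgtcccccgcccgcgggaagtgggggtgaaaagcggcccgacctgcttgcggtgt
HYOU1 (chr11:119057206-119057455, minus strand): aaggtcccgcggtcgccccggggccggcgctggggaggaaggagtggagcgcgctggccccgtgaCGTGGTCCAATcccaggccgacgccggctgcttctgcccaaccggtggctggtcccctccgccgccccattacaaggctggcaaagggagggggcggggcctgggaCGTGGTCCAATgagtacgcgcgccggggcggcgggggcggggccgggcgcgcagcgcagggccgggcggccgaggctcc
HLA-DQB1 (chr6:32666658-32666907, minus strand): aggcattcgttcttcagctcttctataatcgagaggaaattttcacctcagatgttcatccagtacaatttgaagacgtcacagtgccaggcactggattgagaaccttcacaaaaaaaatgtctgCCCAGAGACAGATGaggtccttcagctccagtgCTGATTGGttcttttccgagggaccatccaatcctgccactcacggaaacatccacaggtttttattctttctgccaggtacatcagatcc
HLA-DMA (chr6:32953098-32953347, minus strand): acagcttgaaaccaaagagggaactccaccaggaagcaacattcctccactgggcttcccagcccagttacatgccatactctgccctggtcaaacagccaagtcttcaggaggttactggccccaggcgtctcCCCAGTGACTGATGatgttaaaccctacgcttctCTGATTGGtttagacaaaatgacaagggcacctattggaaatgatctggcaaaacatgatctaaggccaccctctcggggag
HLA-DMB (chr6:32941029-32941278, minus strand): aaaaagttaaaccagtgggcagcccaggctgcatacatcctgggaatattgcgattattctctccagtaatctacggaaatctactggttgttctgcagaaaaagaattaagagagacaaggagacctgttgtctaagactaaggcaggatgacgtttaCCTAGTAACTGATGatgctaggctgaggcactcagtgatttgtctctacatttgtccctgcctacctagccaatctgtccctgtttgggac
EGR1 (chr5:138465229-138465478, plus strand): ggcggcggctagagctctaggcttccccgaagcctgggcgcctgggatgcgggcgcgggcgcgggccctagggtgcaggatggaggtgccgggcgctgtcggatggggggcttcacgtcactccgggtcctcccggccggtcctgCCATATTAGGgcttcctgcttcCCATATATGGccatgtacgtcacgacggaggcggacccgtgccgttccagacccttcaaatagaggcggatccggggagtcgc
ERSE was searched as CCAAT and CCACG with 9 bases between them, ERSE-II as ATTGG and CCACG with 1 base between them, the Y box as CTGATTGG, and the X and CArG boxes by their degenerate patterns, each on both strands. The Y box holds the letters of CCAAT in reverse complement, with which ERSE begins. Among 35116 promoters of this length, 0.074% held ERSE, 0.0513% ERSE-II, 0.0513% the X box, 3.81% the Y box and 1.16% a CArG box. All 17 genes of the endoplasmic reticulum stress group had a promoter in the RefSeq set, of which 3 held ERSE (*CRELD2*, *HSP90B1*, *HSPA5*) and 3 held ERSE-II (*HERPUD1*, *HYOU1*, *SDF2L1*). Of the 14 class II chain and loading genes that matched, 3 held the X box (*HLA-DMA*, *HLA-DMB*, *HLA-DQB1*) and 6 the Y box. Among 19 matched growth-signal feedback genes, only *EGR1* held a CArG box, in 2 copies that start 105 and 83 bases before the transcription start. These matches describe the letters in the window.

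The interaction was called for 4848 genes (edgeR quasi-likelihood *F*-test with Benjamini-Hochberg adjustment, adjusted *P* below 0.05), which is 32.0% of the genes tested. A positive interaction means that the change in MEC1 lay above the change in JVM2, and this was the case for 2319 genes (15.3%), against 2529 (16.7%) with a negative one. Among the 4848 genes, 1004 rose in one line and fell in the other, 1580 (10.4% of the genes tested) were called in MEC1 only and 1597 (10.6%) in JVM2 only. The remaining genes were 385 that changed the same way by unequal amounts (2.54%) and 282 that were called in neither line taken alone (1.86%). In MEC1 only, 732 rose (4.84%) and 848 fell (5.6%), and in JVM2 only, 783 rose (5.18%) and 814 fell (5.38%). Taken alone, the effect was called for 5387 genes in MEC1 (35.6%) and 4599 in JVM2 (30.4%). Interactions of at least 2-fold numbered 1242 (8.21%). Genes of opposite response thus made up 6.64% of all genes tested, with 472 higher in MEC1-2B17 and lower in JVM2-2B17 (3.12%) and 532 the other way (3.52%). In 352 of them the change exceeded 1.3-fold in each line. Their median absolute change was modest in each line, at 0.36 (log2) in MEC1 and 0.41 in JVM2. For 1073 of the MEC1-only genes (7.09% of all) and 1258 of the JVM2-only genes (8.31%) the 95% interval of the other line also stayed within 1.3-fold in either direction, so for these the absence of a change was bounded.

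**Figure D1:**
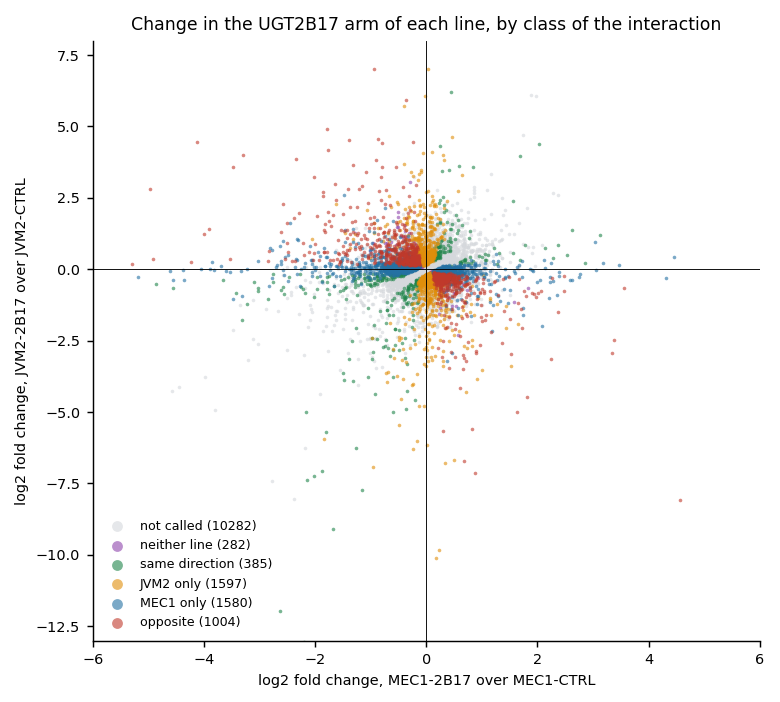
Log2 fold change of 2B17 over CTRL for each of the 15130 genes tested, in MEC1 (horizontal) and JVM2 (vertical), coloured by the class of the interaction. The 1004 opposite genes fill the upper left and lower right quadrants, and the one-line genes lie along the axes.

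Antigen presentation by MHC class II had the highest share of opposite genes among the 27 lists examined. Of 21 genes tested, 15 had a called interaction with the MEC1 change below the JVM2 change (16.7% of all genes) and 1 above it (15.3%). Of the 21, 13 were opposite (61.9%, against 6.64% of all genes). All 9 class II alpha and beta chain genes fell in MEC1-2B17 and rose in JVM2-2B17, with a median log2 change of -0.48 in MEC1 and 0.41 in JVM2. *HLA-DMB* (chr6:32934629-32941028), a subunit of the exchange factor that removes the invariant chain peptide from class II molecules, had the largest difference of the group, at 41.1, 38.6 and 41.5 CPM in MEC1-CTRL, 22.4, 20.4 and 21 in MEC1-2B17, 88.1, 83.2 and 79 in JVM2-CTRL and 161, 154 and 149 in JVM2-2B17. Its level was lower in every MEC1-2B17 library than in any MEC1-CTRL library, and higher in every JVM2-2B17 library than in any JVM2-CTRL library, with log2 changes of -0.92 ± 0.055 in MEC1 and 0.89 ± 0.055 in JVM2, which set the lines apart by an interaction of -1.82 ± 0.078 (adjusted *P* = 4.8e-13). *HLA-DRA*, the alpha chain shared by all HLA-DR molecules, was measured at 846, 850.5 and 854 CPM in MEC1-CTRL, 614, 658 and 651 in MEC1-2B17, 1536, 1475 and 1473 in JVM2-CTRL and 2504, 2321 and 2301 in JVM2-2B17. Here, too, the arms were separate in both lines, and the lines moved apart by -1.08 ± 0.06 (adjusted *P* = 2.3e-11).

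The partner subunit *HLA-DMA* was called in MEC1 only (-0.56 in MEC1, 0.19 in JVM2, and 0.33 in JVM2 with a call as opposite without JVM2-2B17 replicate 2), as was *HLA-DOB*, a modulator of HLA-DM (-0.87 and 0.39), whereas the other modulator chain *HLA-DOA* was opposite (-0.20 and 0.67). *CD74*, the invariant chain, rose in JVM2 only (0.20), and its interaction lost the call without any 1 of 9 of the 12 libraries. *CIITA*, the coactivator of the family, followed the chains at a smaller size, with 88.8, 85.9 and 90.4 CPM in MEC1-CTRL, 72.5, 76.4 and 78.2 in MEC1-2B17, 74, 71.4 and 70.7 in JVM2-CTRL and 83.3, 73.3 and 93.4 in JVM2-2B17. The log2 changes of *CIITA* were -0.22 ± 0.057 in MEC1 and 0.21 ± 0.068 in JVM2, and its JVM2 arms overlapped. The interaction was not called for *RFX5*, *RFXAP* and *RFXANK*, the subunits of the X-box factor (log2 interactions of -0.18, -0.24 and -0.21), although DESeq2 called *RFX5* at an adjusted *P* of 0.036. *LGMN*, an asparagine endopeptidase of the endosome, went against the rest of the list, rising in MEC1-2B17 and falling in JVM2-2B17 at 125, 136 and 125 CPM in MEC1-CTRL, 202, 176 and 191 in MEC1-2B17, 149, 145 and 143 in JVM2-CTRL and 93.8, 104 and 91.8 in JVM2-2B17. Reads of *HLA-DRB1*, *HLA-DRB5*, *HLA-DQA1*, *HLA-DQA2* and *HLA-DQB1*, *HLA-DQB2* can be split between near-identical copies, so their single values are uncertain.

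For MHC class I, the chains had called interactions at a share near that of all genes, 28.6% against 32.0%. Among 7 chain genes these were *HLA-C* (JVM2 only, -0.30) and *HLA-F* (MEC1 only, -0.32). In peptide supply and loading, 5 of 14 genes were opposite (35.7%, against 6.64% of all genes). All 5 rose in MEC1-2B17 and fell in JVM2-2B17 (3.12% of all genes). These were the peptide trimming enzymes *ERAP1* and *ERAP2* and the endoplasmic reticulum chaperones *CALR*, *CANX* and *PDIA3*. *ERAP1* was measured at 183, 183 and 184 CPM in MEC1-CTRL, 248, 267 and 247 in MEC1-2B17, 203, 194 and 206 in JVM2-CTRL and 162, 148 and 155 in JVM2-2B17, with no overlap of arms in either line. *PSMB8*, a subunit of the immunoproteasome, fell in MEC1 only, at 152, 152 and 153 CPM in MEC1-CTRL and 94.3, 93.8 and 93.4 CPM in MEC1-2B17, against 312, 306 and 299 CPM in JVM2-CTRL and 318, 315 and 306 CPM in JVM2-2B17. *NLRC5*, the class I coactivator, had log2 changes of -0.36 and -0.21 with no called interaction (adjusted *P* = 0.15).

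Genes of endoplasmic reticulum stress responded in the reverse sense of the class II genes. Among the 17 genes of this group 13 had a called interaction (76.5%, against 32.0% of all genes), each with the MEC1 change above the JVM2 change (15.3%). Of the 17, 10 were opposite (58.8%, against 3.12% of all genes in this direction). The median log2 change of the 17 genes was 0.28 in MEC1 and -0.38 in JVM2. *HSP90B1*, the endoplasmic reticulum form of HSP90, was measured at 759.9, 806 and 822 CPM in MEC1-CTRL, 1255, 1340.1 and 1239 in MEC1-2B17, 1361, 1305 and 1351 in JVM2-CTRL and 916, 963 and 862 in JVM2-2B17. All MEC1-2B17 libraries lay above MEC1-CTRL and all JVM2-2B17 libraries below JVM2-CTRL, with log2 changes of 0.68 ± 0.047 in MEC1 and -0.55 ± 0.047 in JVM2. *HYOU1*, a large chaperone of the HSP70 superfamily, behaved alike, at 295, 308 and 324 CPM in MEC1-CTRL, 454, 469.7 and 472 in MEC1-2B17, 457, 451 and 442 in JVM2-CTRL and 302, 264 and 287 in JVM2-2B17, and its interaction was 1.25 ± 0.073 (adjusted *P* = 4.2e-11).

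*MANF*, a secreted factor of the stressed endoplasmic reticulum (chr3:51385291-51389397), had the largest difference in the group, at 50, 55.4 and 59.9 CPM in MEC1-CTRL, 78.3, 80.4 and 78.5 in MEC1-2B17, 110.1, 104 and 103 in JVM2-CTRL and 57.7, 55.9 and 58.9 in JVM2-2B17, with an interaction of 1.40 ± 0.084 (adjusted *P* = 6.6e-11). The oxidoreductases *PDIA4* and *PDIA6*, the cochaperones *DNAJB11* and *SDF2L1*, the disulfide isomerase-like *CRELD2*, the degradation factor *SEL1L* and the sensor *ERN1* were the other opposite genes, with MEC1 changes of 0.18 to 0.71 and JVM2 changes of -0.57 to -0.18. *HSPA5*, the chaperone BiP, fell in JVM2 only (0.15 in MEC1 with an adjusted *P* of 0.071, -0.70 in JVM2), and without JVM2-2B17 replicate 2 it was opposite (0.16 and -0.70). Without that library the JVM2 change of *ERN1* was -0.24 and not called. The locus of *HSPA5* on chromosome 9 lies beyond 60 Mb, among genes whose median change in MEC1 was -0.38. The sensors *ATF6* and *EIF2AK3* had log2 interactions of 0.11 and 0.08 that were not called. *HERPUD1*, whose promoter held an ERSE-II, was higher in both 2B17 arms (0.28 in MEC1, 0.21 in JVM2), with no called interaction.

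Targets of the integrated stress response factor ATF4 were less uniform. Of 18 tested, 9 had a called interaction (32.0% of all genes), all positive (15.3%), with 2 opposite (11.1%, against 6.64%), namely *PHGDH*, the first enzyme of serine synthesis, and the factor *ATF5*, 3 that rose in MEC1 only, 3 that fell in JVM2 only and 1 that fell in both lines. *ATF5* was near the threshold and was called in 1 line only without any 1 of 6 of the libraries, with a JVM2 change of -0.15 without JVM2-2B17 replicate 2. *SLC7A11*, the cystine transporter, was measured at 139, 135 and 117 CPM in MEC1-CTRL, 122, 116 and 118 in MEC1-2B17, 29.5, 37.3 and 35.6 in JVM2-CTRL and 11.5, 11.6 and 13.9 in JVM2-2B17, so that it fell 2.78-fold in JVM2 and its MEC1 arms overlapped. The MEC1 change of *SLC7A11* (-0.13) was called as well without JVM2-2B17 replicate 2. *ATF4* itself rose in MEC1 only (0.21 ± 0.041 in MEC1, -0.07 in JVM2).

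Growth-signal feedback genes had the largest median interaction in size among the 27 lists, -1.12 over 25 genes against -0.0072 over all genes tested. With other scalings, filters and tests this median ran from -1.13 to -0.88 and that of the mitochondrial DNA genes from 1.08 to 1.16, so the rank depends on the processing. Of the 25 genes, 14 had a called interaction with the MEC1 change below the JVM2 change (16.7% of all genes) and 2 above it (15.3%). All 9 opposite genes fell in MEC1-2B17 and rose in JVM2-2B17 (36.0%, against 3.52% of all genes). *EGR1*, an immediate early transcription factor (chr5:138465479-138469303), was measured at 5.55, 8.38 and 6.42 CPM in MEC1-CTRL, 1.46, 1.90 and 2.64 in MEC1-2B17, 6.29, 7.05 and 5.44 in JVM2-CTRL and 28, 15.4 and 31.7 in JVM2-2B17. It fell 3.39-fold in MEC1 and rose 4.0-fold in JVM2, where replicate 2 of JVM2-2B17 was the lowest of its arm, and the JVM2 change was 2.24 without that library. *EGR2* showed the same pattern, at 6.83, 7.17 and 6.87 CPM in MEC1-CTRL, 2.16, 1.60 and 2.04 in MEC1-2B17, 25.9, 25 and 29.8 in JVM2-CTRL and 44.7, 30.2 and 47.2 in JVM2-2B17.

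The MAP kinase phosphatase *DUSP4* fell in MEC1 by more than any other gene of the list, at 10.8, 12 and 12.6 CPM in MEC1-CTRL, 2.45, 1.49 and 2.07 in MEC1-2B17, 134, 133 and 127 in JVM2-CTRL and 168, 166 and 171 in JVM2-2B17. *SPRY1* and *SPRY2*, inhibitors of receptor tyrosine kinase signaling, had MEC1 changes of -0.99 and -1.16 and JVM2 changes of 0.56 and 0.51. Their relative *SPRED1* instead rose in JVM2 only, at 16.2, 15.6 and 15.3 CPM in MEC1-CTRL, 15.5, 14.7 and 15.1 in MEC1-2B17, 1.49, 1.09 and 1.59 in JVM2-CTRL and 7.06, 7.14 and 5.88 in JVM2-2B17, and *SPRED2* fell in MEC1 only (-1.35), with a called JVM2 rise of 0.45 without JVM2-2B17 replicate 2. The remaining opposite members were *IER2*, *DUSP2*, *DUSP10* and *ETV4*. *MYC* went the other way and rose in MEC1 only, at 274, 282 and 280.1 CPM in MEC1-CTRL, 398, 378 and 409 in MEC1-2B17, 169.6, 163 and 160.5 in JVM2-CTRL and 203, 160.0 and 186 in JVM2-2B17, with an interaction of 0.35 ± 0.09 (adjusted *P* = 0.0055). *MYC* rose in both lines without JVM2-2B17 replicate 2, by 0.51 in MEC1 and 0.25 in JVM2 (adjusted *P* = 0.00044). *FGFR1*, a growth factor receptor outside the list, moved as *EGR1* did, at 21.9, 22 and 23.3 CPM in MEC1-CTRL, 7.56, 5.49 and 6.52 in MEC1-2B17, 2.35, 2.19 and 2.04 in JVM2-CTRL and 39.6, 38 and 41.8 in JVM2-2B17, a change of -1.78 in MEC1 and 4.18 in JVM2.

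**Figure D2:**
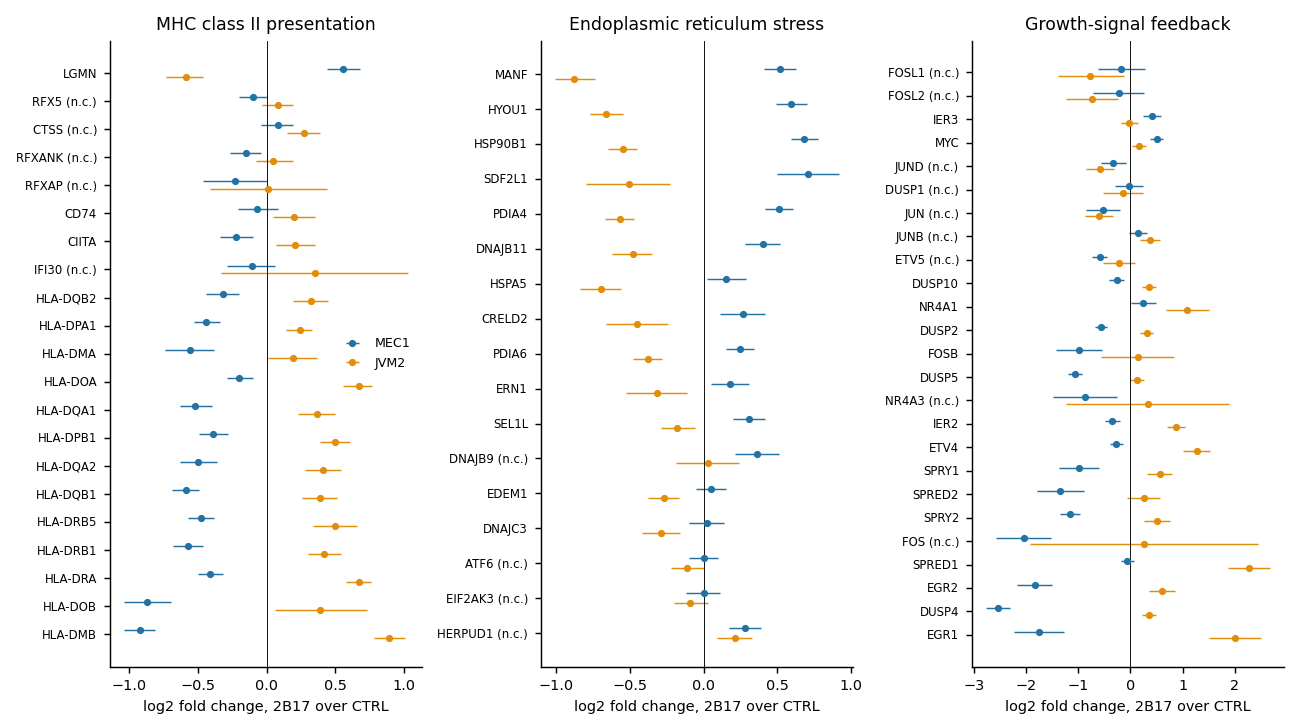
Log2 fold change of 2B17 over CTRL with its 95% interval for every tested member of 3 gene groups, in MEC1 (blue) and JVM2 (orange), ordered by interaction, where n.c. marks an interaction that was not called. Class II and growth-signal genes lie mostly left of zero in MEC1 and right of zero in JVM2, while endoplasmic reticulum stress genes show the reverse.

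Plasma-cell genes differed with the same sign as the chaperones for some members only. Of 7 tested, 6 had a called interaction (85.7%, against 32.0% of all genes), 4 positive (15.3%) and 2 negative (16.7%). *CD38*, an ectoenzyme abundant on plasma cells, was measured at 4.43, 4.85 and 4.62 CPM in MEC1-CTRL, 10.1, 9.37 and 9.88 in MEC1-2B17, 73.7, 69.3 and 72.4 in JVM2-CTRL and 25.1, 20.3 and 24.6 in JVM2-2B17, so it rose 2.11-fold in MEC1 and fell 3.06-fold in JVM2 with no overlap of arms. *SDC1*, the plasma-cell proteoglycan CD138, was also opposite, at 60.9, 61.3 and 64.9 CPM in MEC1-CTRL, 108, 103 and 109 in MEC1-2B17, 363, 364 and 345 in JVM2-CTRL and 256, 251 and 261 in JVM2-2B17. *IRF4*, a factor needed for plasma-cell formation, rose 2.04-fold in MEC1 only, at 1116, 1133 and 1105 CPM in MEC1-CTRL, 2264, 2335 and 2256 in MEC1-2B17, 2062, 2074 and 2102 in JVM2-CTRL and 2210.1, 2055 and 2208 in JVM2-2B17, while its JVM2 arms overlapped. Without JVM2-2B17 replicate 2 the JVM2 change of *IRF4* was 0.09 and called (adjusted *P* = 0.036). In the reverse sense, *TNFRSF17*, the survival receptor BCMA, fell in MEC1 only, at 39.1, 39 and 40.2 CPM in MEC1-CTRL, 20.8, 20 and 19.7 in MEC1-2B17, 152, 152 and 155 in JVM2-CTRL and 143, 157 and 136 in JVM2-2B17, and without that library its JVM2 change of -0.13 was called as well (adjusted *P* = 0.034). *XBP1*, the factor spliced in the unfolded protein response, fell in JVM2 only (-0.39), and *PRDM1*, the repressor BLIMP1, had log2 changes of -1.46 and -1.58 with no called interaction (adjusted *P* = 0.67). *BHLHA15*, a secretory-cell factor known as MIST1, was among the largest opposite genes of the whole fit, at 3.40, 4.83 and 4.79 CPM in MEC1-CTRL, 15.4, 12.7 and 16.7 in MEC1-2B17, 5.12, 4.17 and 4.53 in JVM2-CTRL and 2.22, 2.66 and 2.28 in JVM2-2B17.

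Among B-cell factors, 7 of 15 had a called interaction (32.0% of all genes). *IRF8* and *MEF2C* fell in MEC1-2B17 and rose in JVM2-2B17 (log2 changes of -0.25 and 0.40, and of -0.22 and 0.37), whereas *PAX5* had a log2 interaction of -0.05 that was not called. Without JVM2-2B17 replicate 2 the interaction of *PAX5* was called at -0.18 (adjusted *P* = 0.022), and the opposite genes of the B-cell and plasma-cell list numbered 8 in place of 4.

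The B-cell receptor list held 17 genes with a negative (16.7% of all genes) and 4 with a positive interaction (15.3%) among 40 tested. Of the 40, 8 were opposite (20%, against 6.64%). The largest interactions in the list, of unlike sign, were those of *CR2* and *VAV3*. *CR2*, the complement receptor CD21, was measured at 488, 463 and 457 CPM in MEC1-CTRL, 791, 865 and 833 in MEC1-2B17, 17.2, 14.7 and 17.3 in JVM2-CTRL and 0.290, 0.484 and 0.240 in JVM2-2B17. The JVM2-2B17 value of *CR2* rests on 3, 4 and 2 counts, so its fold there is imprecise, while its rise in MEC1 was 1.77-fold. *VAV3*, a guanine nucleotide exchange factor downstream of the receptor, fell in MEC1 and rose 21.5-fold in JVM2, at 34.2, 32.6 and 29.5 CPM in MEC1-CTRL, 18, 19.4 and 17.9 in MEC1-2B17, 1.71, 1.99 and 2.27 in JVM2-CTRL and 40.4, 46.9 and 41.2 in JVM2-2B17. *CD79A*, a signaling chain of the receptor, rose in MEC1 and fell in JVM2 (0.29 and -0.39).

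Among the 8 opposite genes in this list 6 fell in MEC1-2B17, among them the adaptor *PIK3AP1* and the factor *NFATC2*. *PIK3AP1* was measured at 605, 599 and 605 CPM in MEC1-CTRL, 367, 355 and 358 in MEC1-2B17, 246, 244 and 238 in JVM2-CTRL and 272, 288 and 268 in JVM2-2B17. *FCGR2B*, the inhibitory Fc receptor, fell in MEC1 only, at 78.7, 73.3 and 75 CPM in MEC1-CTRL, 33.1, 32.1 and 32.9 in MEC1-2B17, 48.1, 51.7 and 50.3 in JVM2-CTRL and 47.2, 47.4 and 51.2 in JVM2-2B17. Kinases next to the receptor diverged, since *SYK* fell in both lines by unequal amounts (-1.13 and -0.32), *FYN* rose in JVM2 only (0.68) and *BTK* had no called interaction (adjusted *P* = 0.99).

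Homing and adhesion genes had 14 negative (16.7% of all genes) and 5 positive (15.3%) interactions among 27 tested. Of the 27, 9 were opposite (33.3%, against 6.64%), 6 of which fell in MEC1-2B17 (3.52%). *VCAM1*, the ligand of integrin alpha 4 beta 1, was measured at 9.58, 8.41 and 8.53 CPM in MEC1-CTRL, 3.01, 3.21 and 3.30 in MEC1-2B17, 4.16, 2.98 and 5.21 in JVM2-CTRL and 8.51, 12.5 and 10.6 in JVM2-2B17. Arms were separate in both lines, with log2 changes of -1.48 ± 0.12 in MEC1 and 1.35 ± 0.18 in JVM2. *GPR183*, a chemotactic receptor for oxysterols, was measured at 232, 244 and 259.6 CPM in MEC1-CTRL, 191, 188 and 187 in MEC1-2B17, 123, 127 and 132 in JVM2-CTRL and 188, 199.6 and 193 in JVM2-2B17. *ITGB5*, an integrin beta chain, rose 3.03-fold in JVM2 only, at 85.8, 84.5 and 80.1 CPM in MEC1-CTRL, 78.4, 77.8 and 80.3 in MEC1-2B17, 102, 94.2 and 97.9 in JVM2-CTRL and 298, 311 and 282 in JVM2-2B17. *ICAM1* and *ICAM3* rose in MEC1-2B17 and fell in JVM2-2B17 (0.37 and -0.31, and 0.32 and -0.30).

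**Figure D3:**
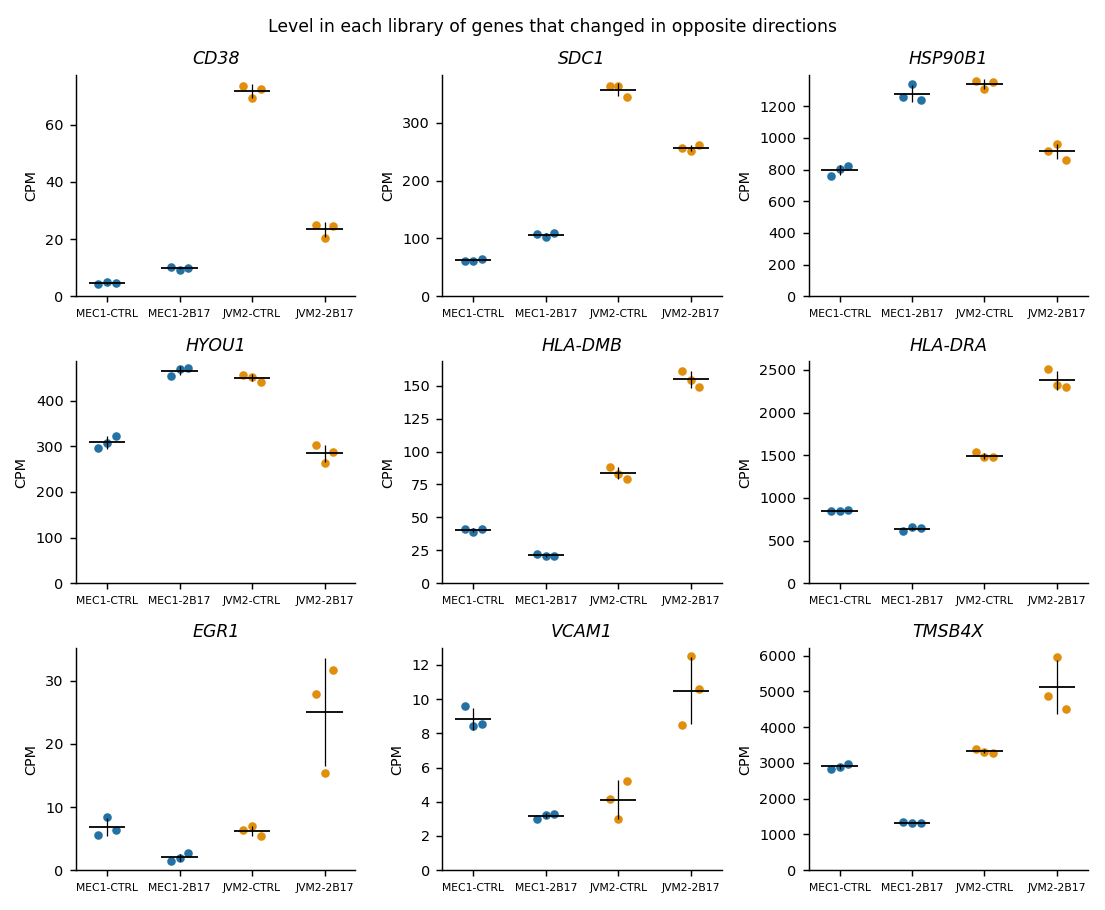
CPM in each of the 12 libraries for 9 genes of opposite response, with blue points for MEC1, orange points for JVM2, bars at the group mean and whiskers of 1 SD (n = 3). In each panel the 2B17 arm moves away from CTRL in one direction in MEC1 and in the other in JVM2, with no overlap between arms.

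In the chemokine list 9 interactions were positive (15.3% of all genes) and 4 negative (16.7%) among 25 genes. There was 1 opposite gene (4.0%, against 6.64% of all genes), which numbered 0 without JVM2-2B17 replicate 2. *CCL22*, a ligand of CCR4, fell in JVM2 only, at 47.7, 43.7 and 46.9 CPM in MEC1-CTRL, 42.1, 48.2 and 48.1 in MEC1-2B17, 76.7, 85.7 and 87.4 in JVM2-CTRL and 48.7, 22 and 46.4 in JVM2-2B17, where replicate 2 of JVM2-2B17 was again lowest and the JVM2 change was -0.80 without it. *CXCR3*, a receptor for interferon-induced chemokines, fell in MEC1 only, at 10.1, 10 and 12.9 CPM in MEC1-CTRL, 4.86, 4.11 and 4.45 in MEC1-2B17, 20.6, 16.3 and 20.1 in JVM2-CTRL and 17.9, 14.9 and 16.9 in JVM2-2B17. *CCL3* fell in both lines and more in MEC1 (-0.75 and -0.20).

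Among costimulatory and TNF family molecules 21 of 29 had a called interaction (32.0% of all genes), 12 positive (15.3%) and 9 negative (16.7%). The 6 opposite genes (20.7%, against 6.64% of all genes) numbered 9 without JVM2-2B17 replicate 2. *TNFSF4*, the ligand OX40L, was opposite at 6.55, 6.62 and 5.59 CPM in MEC1-CTRL, 3.63, 3.94 and 4.02 in MEC1-2B17, 15.4, 15 and 16.3 in JVM2-CTRL and 26.9, 33.6 and 26.3 in JVM2-2B17, and so was the activation marker *CD69*, at 89.9, 105 and 89.1 CPM in MEC1-CTRL, 57.5, 57.5 and 56.7 in MEC1-2B17, 30.7, 33 and 34.1 in JVM2-CTRL and 39, 53.5 and 44.4 in JVM2-2B17. *TNFSF10*, the death ligand TRAIL, fell in both lines and more in JVM2 (-0.72 and -1.88). *CD52* fell in MEC1 only, at 69, 65 and 72.3 CPM in MEC1-CTRL, 38.5, 37 and 39.6 in MEC1-2B17, 136, 132 and 124 in JVM2-CTRL and 172, 124 and 154 in JVM2-2B17, but without JVM2-2B17 replicate 2 it was opposite (-0.84 in MEC1, 0.33 in JVM2 with an adjusted *P* of 5.3e-05). The 6 genes that rose in MEC1 only included *CD40*, *CD80* and *ICOSLG*, with log2 changes of 0.18, 0.42 and 0.57. Without that library *CD80* was opposite, with a JVM2 change of -0.14.

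NF-kB pathway genes split, with 5 opposite genes among 24 (20.8%, against 6.64% of all genes), of which 3 fell in MEC1-2B17. *NFKBIZ*, an atypical nuclear inhibitor, rose in MEC1 and fell in JVM2, at 36.7, 39 and 36.6 CPM in MEC1-CTRL, 48.1, 51.2 and 46.7 in MEC1-2B17, 66, 70.5 and 72.3 in JVM2-CTRL and 35.3, 34.5 and 37.7 in JVM2-2B17. *LTA*, the cytokine lymphotoxin alpha, moved alike (0.43 and -0.72), whereas its neighbour and partner *LTB* rose in both lines and more in JVM2, at 35, 37.3 and 39.2 CPM in MEC1-CTRL, 48.6, 42.8 and 47.9 in MEC1-2B17, 1.71, 0.994 and 1.47 in JVM2-CTRL and 4.25, 6.41 and 6.12 in JVM2-2B17. *BCL2A1*, an antiapoptotic target of the pathway, fell in MEC1 and rose in JVM2, at 51, 53 and 56.5 CPM in MEC1-CTRL, 47.5, 46.1 and 43.3 in MEC1-2B17, 77.7, 75.5 and 77.3 in JVM2-CTRL and 103, 115 and 102 in JVM2-2B17.

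Of the BCL2 family 11 of 15 had a called interaction (32.0% of all genes). The proapoptotic BH3-only genes *BCL2L11* and *BBC3* were opposite in reverse senses, with *BCL2L11* (BIM) up in MEC1 and down in JVM2 (0.27 and -0.91) and *BBC3* (PUMA) down in MEC1 and up in JVM2 (-0.25 and 0.39). *BID* fell in MEC1 only (-0.27). *CDKN1A*, the cell cycle inhibitor p21, fell in MEC1 only, at 64.1, 67.1 and 72 CPM in MEC1-CTRL, 37.1, 36.1 and 36.3 in MEC1-2B17, 346, 340.1 and 345 in JVM2-CTRL and 334, 287 and 312 in JVM2-2B17.

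Of the genes that carry glucose to lactate 10 of 23 fell in MEC1 only (background 5.6%), among them *HK1*, *ALDOA*, *ALDOC*, *TPI1*, *PGK1*, *PGAM1*, *ENO2* and *LDHA*, with MEC1 changes of -0.69 to -0.27. The interaction of *ENO2* lost its call without any 1 of 4 libraries. *SLC2A3*, the glucose transporter GLUT3, was measured at 36.8, 37.5 and 35.4 CPM in MEC1-CTRL, 24.2, 23.5 and 23.6 in MEC1-2B17, 20.8, 24.9 and 24 in JVM2-CTRL and 24.8, 25 and 25.8 in JVM2-2B17, so it fell in MEC1 and its JVM2 arms overlapped. *GAPDH*, *ENO1* and *PKM* had log2 interactions of -0.06, -0.06 and -0.06 that were not called, although *GAPDH* was called at -0.12 without JVM2-2B17 replicate 2. *PFKFB3*, which makes the activator of phosphofructokinase, was opposite, at 20, 20.2 and 21.3 CPM in MEC1-CTRL, 16.7, 16.6 and 16.1 in MEC1-2B17, 12.9, 12.7 and 13.3 in JVM2-CTRL and 24.1, 20.6 and 27.5 in JVM2-2B17. Of 12 hypoxia targets 4 rose in JVM2 only (background 5.18%), and *P4HA2*, a collagen prolyl hydroxylase, was opposite (-1.15 and 0.35). *HIF1A* had an interaction of -0.05 (adjusted *P* = 0.63).

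The 13 protein genes of mitochondrial DNA were lower in JVM2-2B17 with little change in MEC1. Of the 13, 12 had a called interaction, all in the class JVM2 only (background 5.38% for a fall in JVM2 only), with a median log2 change of 0.07 in MEC1 and -1.01 in JVM2. *MT-CYB*, cytochrome b of complex III, was measured at 96.9, 91.3 and 95.9 CPM in MEC1-CTRL, 89.4, 96.2 and 99.4 in MEC1-2B17, 119.8, 107 and 111 in JVM2-CTRL and 64.5, 13.5 and 60.4 in JVM2-2B17. Together these genes took 0.534, 0.495 and 0.471% of the counts in JVM2-CTRL and 0.295, 0.134 and 0.304% in JVM2-2B17, so that replicate 2 was the lowest by far. In MEC1 the share was 0.76 to 0.797% in CTRL and 0.764 to 0.818% in 2B17. The JVM2 arms did not overlap, and the exact two-sided permutation test gave *P* = 0.1, the smallest that 3 against 3 libraries allow. Without JVM2-2B17 replicate 2 the same number of interactions was called, 9 in JVM2 only and 3 opposite, and the median JVM2 change was -0.69. DESeq2 on all libraries called 5 of the 13, and *MT-CYB* had an adjusted *P* of 0.12. Counts of *RN7SK*, a small nuclear RNA, moved with this result, from 2.73 to 3.12% of the library in JVM2-CTRL to 3.3 to 3.82% in JVM2-2B17, and its part in the result was not tested. In bulk libraries fewer transcripts per cell and fewer cells that carry them cannot be told apart.

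Nuclear genes of oxidative phosphorylation differed in the reverse sense. Among 75 tested 33 had a called interaction (32.0% of all genes), each negative (16.7%). Of these, 15 fell in MEC1 only (background 5.6%), 13 rose in JVM2 only (5.18%) and 2 were opposite (6.64%). This split depended on single libraries: without JVM2-2B17 replicate 2, 21 fell in MEC1 only, 6 rose in JVM2 only and 4 were opposite, without JVM2-2B17 replicate 3 there were 8 opposite, and without JVM2-CTRL replicate 3 only 9 fell in MEC1 only. The differences were small, with a median of -0.21. *NDUFA8*, a subunit of complex I encoded on chromosome 9, fell in MEC1 only, at 61.4, 59.6 and 60.2 CPM in MEC1-CTRL, 41.7, 39 and 41.8 in MEC1-2B17, 36, 40.6 and 38.2 in JVM2-CTRL and 44.9, 42.1 and 39 in JVM2-2B17. *ATP5J2*, a subunit of ATP synthase, was opposite (-0.26 and 0.31). The change of *COX7B*, a subunit of complex IV, was called in MEC1 only (-0.40).

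Cytosolic ribosomal protein genes rose more in JVM2 than in MEC1. Of 83 tested, 66 had a called interaction (79.5%, against 32.0% of all genes), each negative (16.7%). Of these, 36 rose in JVM2 only (background 5.18%) and 28 rose in both lines and more in JVM2 (0.952% for unequal rises). The median log2 change was 0.12 in MEC1 and 0.42 in JVM2. *RPS18* was measured at 2091, 2087 and 2089.8 CPM in MEC1-CTRL, 2318, 2349.6 and 2268 in MEC1-2B17, 1497, 1434 and 1397 in JVM2-CTRL and 2446, 2719 and 2155 in JVM2-2B17. *RPS10* rose in JVM2 only, at 240.5, 235 and 239.9 CPM in MEC1-CTRL, 234, 241 and 243 in MEC1-2B17, 204, 184 and 188 in JVM2-CTRL and 307, 314 and 258 in JVM2-2B17. The 2 opposite genes of the list (2.41%, against 6.64% of all genes), *RPL35* and *RPL7A*, lie on chromosome 9. The list took 7.41 to 7.79% of the counts in JVM2-CTRL and 9.62 to 10.2% in JVM2-2B17, against 8.59 to 8.68% and 9.26 to 9.34% in the MEC1 arms. Ribosomal protein genes have many processed pseudogenes that can share their reads. Without JVM2-2B17 replicate 2 there were 73 called, of which 22 were in JVM2 only and 48 rose in both lines, whereas without MEC1-CTRL replicate 1 only 16 rose in both, so the split between these classes rests in part on single libraries.

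**Figure D4:**
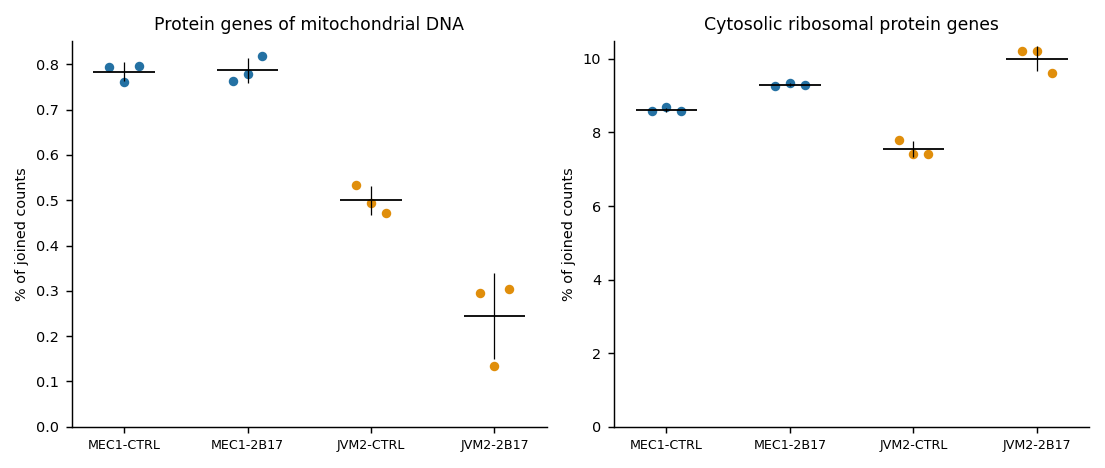
Share of the counts of the joined genes taken by the 13 protein genes of mitochondrial DNA (left) and by 83 cytosolic ribosomal protein genes (right) in each of 12 libraries, with bars at the group mean and whiskers of 1 SD (n = 3). Mitochondrial shares of JVM2-2B17 (0.134 to 0.304%) lie below JVM2-CTRL, and the MEC1 arms overlap. Ribosomal shares are higher in the 2B17 arm of both lines, with the wider gap in JVM2.

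Of 27 cholesterol synthesis genes 6 had a called interaction (22.2%, against 32.0% of all genes), a number that reached 10 without MEC1-CTRL replicate 3. Of 16 fatty acid genes 3 did (18.8%), and 5 without JVM2-2B17 replicate 1. *INSIG1*, a regulator of sterol synthesis, fell in JVM2 only (-0.66). *FASN*, fatty acid synthase, and *ACACA*, acetyl-CoA carboxylase, also fell in JVM2 only (-0.91 and -0.49). *FDPS*, farnesyl diphosphate synthase, fell in MEC1 only (-0.56), and the sterol reductase *TM7SF2* was the 1 opposite gene (-0.62 and 0.37). *SREBF1* and *SREBF2*, the factors of these pathways, had interactions of -0.05 and 0.26 that were not called.

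Among prostanoid and leukotriene genes 9 of 19 had a called interaction (32.0% of all genes). *ALOX5*, 5-lipoxygenase, fell in both lines and more in JVM2, at 6.60, 6.62 and 6.56 CPM in MEC1-CTRL, 2.05, 1.37 and 2.22 in MEC1-2B17, 38.1, 36 and 36.8 in JVM2-CTRL and 0.774, 0.605 and 0.720 in JVM2-2B17. Its activating protein *ALOX5AP* fell in MEC1 and rose 4.77-fold in JVM2, at 53.1, 50.7 and 46.3 CPM in MEC1-CTRL, 32.1, 32.4 and 30.7 in MEC1-2B17, 4.27, 4.27 and 4.99 in JVM2-CTRL and 24.4, 16.8 and 22.7 in JVM2-2B17. *TBXAS1*, thromboxane synthase, was opposite in the reverse sense, at 2.68, 2.73 and 2.37 CPM in MEC1-CTRL, 5.0, 4.64 and 5.53 in MEC1-2B17, 5.01, 5.17 and 3.85 in JVM2-CTRL and 3.29, 1.21 and 3.36 in JVM2-2B17. Its fall in JVM2 rests on single libraries, since without JVM2-2B17 replicate 2 the JVM2 change was -0.50 and not called (adjusted *P* = 0.095), as was the case without JVM2-CTRL replicate 1 or 2. *CBR1*, a carbonyl reductase that acts on prostaglandin E2, fell in JVM2 only (-0.77).

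Cytosolic heat shock genes had 10 positive interactions (15.3% of all genes) and 1 negative among 26, and 7 of the 10 fell in JVM2 only (background 5.38%). Without JVM2-2B17 replicate 2, 5 fell in JVM2 only and 3 were opposite. *HSPA8*, the constitutive HSP70, was measured at 718, 764 and 1045 CPM in MEC1-CTRL, 911, 1004 and 961 in MEC1-2B17, 2609, 2512 and 2514 in JVM2-CTRL and 2065, 1966 and 1931 in JVM2-2B17, so the JVM2 arms were separate and the MEC1 arms overlapped. Without that library *HSPA8* was opposite, with a MEC1 change of 0.19 (adjusted *P* = 0.042). The inducible *HSPA1B* fell in JVM2 only (-0.61), although reads can be shared with its near-identical copy *HSPA1A*. The small heat shock gene *HSPB1* went against the list, falling in MEC1 and rising in JVM2 (-0.81 and 0.58, with overlap between the JVM2 arms), and *HSF1* fell in JVM2 only (-0.20), a change of -0.13 that was not called without JVM2-2B17 replicate 2 (adjusted *P* = 0.087).

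Where their interaction was called, interferon-response genes mostly fell in both lines by unequal amounts. Of 44 tested, 16 fell in both lines with a called interaction (background 1.59%), and 2 were opposite (4.55%, below the 6.64% of all genes). *IFIT1* fell 2.61-fold in MEC1 and 8.88-fold in JVM2, at 10.9, 10.3 and 9.12 CPM in MEC1-CTRL, 4.33, 4.14 and 3.15 in MEC1-2B17, 62, 62.7 and 65.6 in JVM2-CTRL and 6.67, 7.74 and 7.08 in JVM2-2B17. *IFIT3* and *XAF1* likewise fell more in JVM2, by log2 changes of -2.04 and -2.09 against -0.25 and -0.55 in MEC1. The reverse order held for *PARP9*, *DTX3L*, *HERC5*, *IFIT5* and *BST2*, which fell more in MEC1, with interactions of -0.89 to -0.20, of which that of *BST2* lost its call without any 1 of 5 libraries. *TLR7*, a sensor of single-stranded RNA, was opposite, at 68.5, 64.7 and 63.9 CPM in MEC1-CTRL, 25.2, 24.6 and 22.7 in MEC1-2B17, 78.6, 90.9 and 86.9 in JVM2-CTRL and 132, 123 and 124 in JVM2-2B17. The log2 interaction of *IRF7* was 0.25 (adjusted *P* = 0.045) and lost its call in DESeq2 and without any 1 of 9 libraries.

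Actin cytoskeleton genes had 21 negative (16.7% of all genes) and 5 positive (15.3%) interactions among 44. Of the 44, 9 fell in both lines by unequal amounts (background 1.59%). *TMSB4X*, the actin monomer-binding thymosin beta 4, was opposite, at 2839.6, 2884 and 2982 CPM in MEC1-CTRL, 1354, 1321 and 1312 in MEC1-2B17, 3397, 3317 and 3278 in JVM2-CTRL and 4859.7, 5976 and 4519.9 in JVM2-2B17. *VIM* and *AHNAK* fell in both lines and more in MEC1, with log2 changes of -1.11 and -1.28 there and of -0.16 and -0.61 in JVM2, although the JVM2 change of *VIM* was not called without JVM2-CTRL replicate 2. *COTL1* fell in MEC1 (-0.89), and its JVM2 change of -0.17 was -0.10 and not called without JVM2-2B17 replicate 2 (adjusted *P* = 0.17). All 5 opposite genes of the list (11.4%, against 6.64% of all genes) fell in MEC1-2B17, and they numbered 3 without JVM2-CTRL replicate 1.

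In DNA replication 15 of 41 genes (36.6%) and in mitosis 11 of 38 (28.9%) had a called interaction, against 32.0% of all genes, and the mitosis count fell to 6 without MEC1-2B17 replicate 3. The replication licensing genes *CDT1* and *CDC6* rose in MEC1 and fell in JVM2 (0.53 and -0.33, and 0.18 and -0.36). Of the D-type cyclins, *CCND1* and *CCND2* fell in both lines and more in MEC1, where *CCND2* was measured at 22.7, 21.6 and 22.5 CPM in MEC1-CTRL and 8.86, 9.92 and 9.58 CPM in MEC1-2B17, against 472, 509 and 509 CPM in JVM2-CTRL and 420.2, 368 and 414 CPM in JVM2-2B17. Of the replication-dependent histones 14 of 62 (22.6%, against 32.0% of all genes) were called, led by *HIST1H2BE*, which was measured at 1.60, 2.43 and 1.60 CPM in MEC1-CTRL, 5.62, 6.24 and 6.01 in MEC1-2B17, 151, 146 and 150.4 in JVM2-CTRL and 124, 114 and 113 in JVM2-2B17. Histone genes are near-identical copies, so their single values are uncertain. Among lysosome and autophagy genes 12 of 30 were called (40.0%, near the 32.0% of all genes). *RRAGD*, a GTPase that signals nutrients at the lysosome, fell in both lines and 6.70-fold in JVM2, at 108, 111 and 111 CPM in MEC1-CTRL, 70.3, 67.6 and 66.3 in MEC1-2B17, 104, 105 and 106 in JVM2-CTRL and 15.5, 17.7 and 13.9 in JVM2-2B17, and *PSAP*, the precursor of saposins, rose in MEC1 only (0.54).

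**Figure D5:**
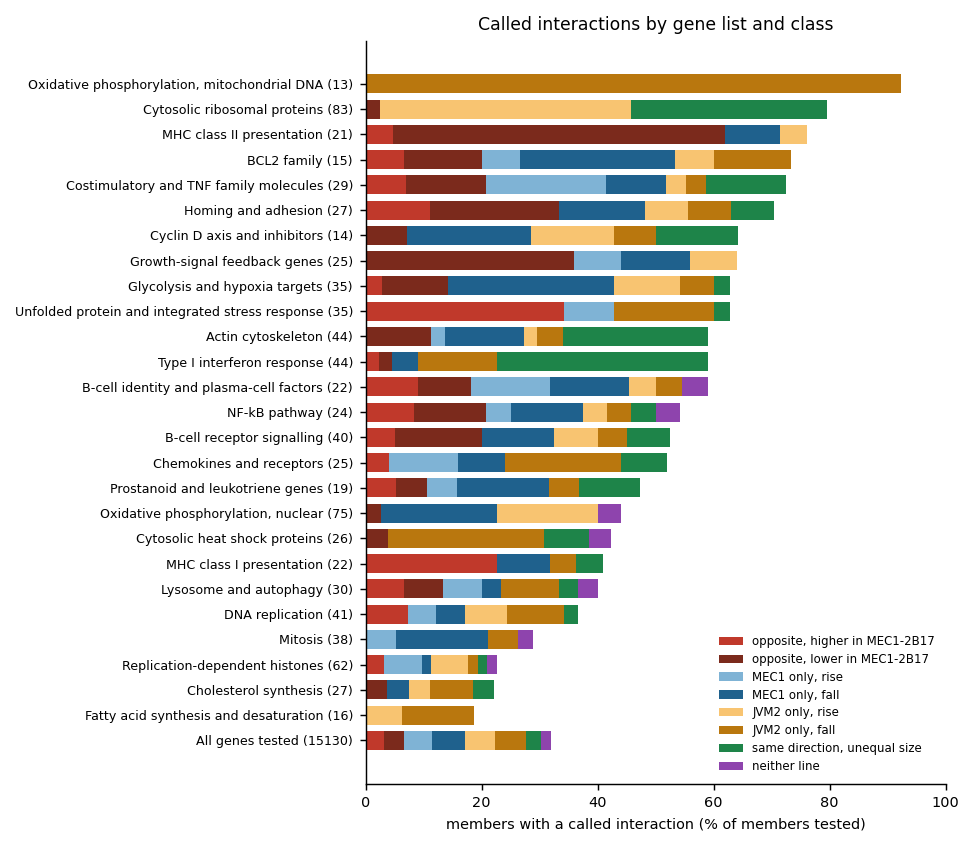
Members with a called interaction as a percentage of the members tested in each gene list shown (number tested in parentheses), divided by class, with all 15130 genes tested in the bottom bar. Opposite genes that fell in MEC1-2B17 take most of the class II bar, those that rose take the largest part of the stress response bar, and falls in JVM2 only take the whole mitochondrial DNA bar.

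Ranked by the smaller of both changes, the leading opposite genes came from several functions and many stood outside the lists. Besides *CD38* and *BHLHA15*, higher in MEC1-2B17 and lower in JVM2-2B17 were *GPR98*, an adhesion G protein-coupled receptor, *ROBO1*, a receptor for SLIT guidance proteins, *RIC3*, a chaperone of acetylcholine receptors, and *BZW2*. *ROBO1* was measured at 13.2, 11.4 and 12 CPM in MEC1-CTRL, 36.6, 39.3 and 37.2 in MEC1-2B17, 30.9, 28.2 and 34.1 in JVM2-CTRL and 0.967, 0.968 and 0.960 in JVM2-2B17, a rise of 3.08-fold in MEC1 beside a fall in JVM2 to 10, 8 and 8 counts. *GPR98* fell in JVM2 to 7, 5 and 7 counts (33, 31.3 and 26.5 CPM in MEC1-CTRL, 103, 113 and 104 in MEC1-2B17, 14.5, 15.6 and 16.8 in JVM2-CTRL and 0.677, 0.605 and 0.840 in JVM2-2B17). *BZW2* rose 3.84-fold in MEC1, at 14.3, 15.7 and 16.5 CPM in MEC1-CTRL, 59.6, 59.9 and 58.4 in MEC1-2B17, 4.58, 4.97 and 5.44 in JVM2-CTRL and 3.09, 2.78 and 2.28 in JVM2-2B17. Their arms were separate in both lines.

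In the reverse sense, with the lower level in MEC1-2B17, stood besides *FGFR1*, *EGR1* and *VCAM1*, the glycogen phosphorylase *PYGL*, the T-box factor *EOMES* and the cholesterol exporter *ABCG1*. *ABCG1* was measured at 64.2, 59.4 and 56.7 CPM in MEC1-CTRL, 16.8, 16.9 and 17.2 in MEC1-2B17, 12.6, 13.7 and 11.2 in JVM2-CTRL and 31.9, 33.3 and 27.7 in JVM2-2B17, so it fell 3.55-fold in MEC1 and rose 2.47-fold in JVM2. *PYGL* was measured at 10.6, 10.8 and 11.2 CPM in MEC1-CTRL, 4.50, 3.76 and 4.05 in MEC1-2B17, 3.20, 1.99 and 2.15 in JVM2-CTRL and 18.1, 16.7 and 16.8 in JVM2-2B17. *EOMES*, best known in T and NK cells, was higher in JVM2 than in MEC1 at the start, at 4.18, 4.22 and 5.19 CPM in MEC1-CTRL, 1.74, 1.40 and 1.53 in MEC1-2B17, 18.2, 17.1 and 17.6 in JVM2-CTRL and 48.5, 38.8 and 48.5 in JVM2-2B17.

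Among genes that changed in MEC1 only, with the JVM2 interval within 1.3-fold, the largest falls were those of *SHROOM3*, *CASK* and *CLECL1*. *SHROOM3* encodes an actin-binding regulator of cell shape and *CASK* a membrane scaffold. *CLECL1* is a lectin-like gene that GENCODE 44 lists as a transcribed unitary pseudogene. *SHROOM3* was measured at 10.1, 9.29 and 9.89 CPM in MEC1-CTRL, 0.225, 0.467 and 0.721 in MEC1-2B17, 285, 284 and 281 in JVM2-CTRL and 279, 264 and 294 in JVM2-2B17. *CLECL1* was measured at 27.3, 25 and 28.6 CPM in MEC1-CTRL, 3.21, 2.80 and 2.61 in MEC1-2B17, 79.7, 77.6 and 75.7 in JVM2-CTRL and 69.8, 85.4 and 77.3 in JVM2-2B17. Rises were smaller, with *SPINT2*, a protease inhibitor, at 1.14, *RARRES3*, a phospholipase, at 1.05 and *IRF4* at 1.03.

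Among genes that changed in JVM2 only, *ITPKB*, a kinase that removes inositol trisphosphate, rose 16.7-fold, at 51.6, 50.5 and 53.3 CPM in MEC1-CTRL, 50.7, 48.7 and 50.2 in MEC1-2B17, 1.92, 2.78 and 2.95 in JVM2-CTRL and 38.2, 42.3 and 48 in JVM2-2B17. *ZNF608* rose 3.72-fold, at 17.8, 16.9 and 17.3 CPM in MEC1-CTRL, 17, 13.5 and 15.7 in MEC1-2B17, 8.10, 7.65 and 6.35 in JVM2-CTRL and 28.6, 26.6 and 27.1 in JVM2-2B17, and *SPRED1*, named above, was the other large rise. *KCNA3*, a potassium channel of lymphocytes, fell under both of its identifiers in the tables, which share a symbol and may share reads. The one that lies at chr1:110653560-110674940 was measured at 16.0, 14.7 and 16.8 CPM in JVM2-CTRL and 2.9, 2.18 and 1.92 CPM in JVM2-2B17, and its MEC1 arms overlapped. *DNAJA4*, a cochaperone, fell 3.94-fold, at 6.28, 5.62 and 7.19 CPM in MEC1-CTRL, 6.21, 7.94 and 6.34 in MEC1-2B17, 4.05, 5.96 and 4.42 in JVM2-CTRL and 0.967, 1.94 and 0.840 in JVM2-2B17.

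By position, chromosome 9 stood out among the chromosomes. Of its 562 tested genes 228 (40.6%) had a negative interaction, against 16.7% over all genes, and 36 (6.41%) a positive one. The genes from 60 Mb on carried this, with 208 of 402 negative and a median log2 change of -0.38 in MEC1 and 0.01 in JVM2, while the 160 genes before 60 Mb had 20 negative and medians of -0.02 and 0.02. Of the 848 genes that fell in MEC1 only, 155 were on chromosome 9. No list named above holds more than 4 tested members there, and the class II, growth-signal and stress response lists hold none, 1 and 2.

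Some classes given above rest on a change near the threshold and did not hold without every 1 of the other libraries. With at least 1 of them left out, one of both changes was not called for the opposite genes *BBC3*, *BCL2L11*, *CD79A*, *CIITA*, *CRELD2*, *ERN1*, *NFATC2*, *P4HA2*, *SDF2L1*, *SEL1L* and *TM7SF2*. Adjusted *P* then reached 0.15 for *CIITA* in JVM2 (without JVM2-2B17 replicate 3), 0.21 for *ERN1* in MEC1 (without MEC1-CTRL replicate 3) and 0.11 for *NFATC2* in MEC1 (without MEC1-2B17 replicate 1). *CCL3* and *RPS18*, given as moving in both lines, were called in one line without any 1 of 3 and of 10 libraries. The reverse held for *BID*, *CDKN1A*, *COX7B*, *HLA-C*, *INSIG1* and *ZNF608*, given as called in one line, whose change in the other line passed the threshold without 1 library, with sizes of 0.13 (*HLA-C*) to 0.25 (*ZNF608*, a fall). Interactions given as not called passed the threshold without 1 library for *RFX5* (adjusted *P* = 0.025 without JVM2-2B17 replicate 1), *RFXANK* (0.017 without JVM2-CTRL replicate 1) and *SREBF2* (0.032 without JVM2-2B17 replicate 3).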

How the data were processed

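RNA of 12 cultures (the CTRL and 2B17 arms of MEC1 and of JVM2, 3 biological replicates each) was depleted of ribosomal RNA and sequenced. Per the labels and the methods of the study, the authors trimmed reads with Trimmomatic, aligned them to hg38 with TopHat2 2.0.14 and counted them per gene with HTSeq, and deposited raw counts in a table for each line. The strand setting is not given in the sources used here. The 12 normalized columns in the same tables and the authors' own fold changes and p-values were not used. Genes in the deposited tables all summed to 10 counts or more within their line.

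Both tables were joined on the Ensembl identifier (22441 and 17144 genes, 16052 in both). edgeR 4.0.16 (R 4.3.3) was run on all 12 libraries with TMM scaling, filterByExpr, which left 15130 genes, and the quasi-likelihood *F*-test of (MEC1-2B17 - MEC1-CTRL) - (JVM2-2B17 - JVM2-CTRL), adjusted by Benjamini-Hochberg over all genes tested. Each line's effect was a contrast of the same fit. A gene was called opposite where the interaction and both line effects were called with unlike signs, and one-line where 1 effect was called. Gene positions are those of GENCODE 44. On counts simulated for the interaction (14961 genes), 43.9%, 62.5% and 84.8% of genes with a log2 difference of 0.5, 1 and 2 were recovered, and 10 unchanged genes were called.

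The comparison, the 27 gene lists (868 tested genes) and the rules were chosen with earlier results of these data known. Genes were named by rule: the 6 opposite genes in each sense with the largest smaller change, a mean log2 CPM of at least 1 in each line and no overlap of arms, the 3 largest rises and falls in each strict one-line class, up to 4 called members of each list, pathway regulators, and *UGT2B17*. Some of these genes are not reported here. Members named as illustrations beyond these were chosen after their values were seen. Alternatives were RLE and other scalings, other filters, DESeq2 1.42.0, thinned MEC1 counts, separate fits, a replicate block and leaving out each library.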

Additional observations from a re-analysis of the deposited data

Results flagged for a closer look

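The interaction itself was flagged because it tests whether the lines differ, and 4848 genes passed it. Each gene named for its opposite or one-line response was flagged for the same reason, by the test of the difference.

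Among opposite genes higher in MEC1-2B17, the log2 interaction was 6.27 for *GPR98*, 6.62 for *ROBO1*, 2.69 for *CD38*, 2.95 for *RIC3*, 2.74 for *BHLHA15* and 2.80 for *BZW2*. Among those lower in MEC1-2B17 it was -5.95 for *FGFR1*, -3.76 for *EGR1*, -4.22 for *PYGL*, -2.89 for *EOMES*, -2.83 for *VCAM1* and -3.13 for *ABCG1*. For genes that changed in MEC1 only it was 1.20 for *SPINT2*, 1.01 for *RARRES3*, 0.98 for *IRF4*, -4.35 for *SHROOM3*, -3.44 for *CASK* and -3.22 for *CLECL1*. For genes that changed in JVM2 only it was -4.12 for *ITPKB*, -2.34 for *SPRED1*, -2.07 for *ZNF608*, 3.15 and 2.73 for the 2 identifiers of *KCNA3* and 2.08 for *DNAJA4*. Each interaction kept its direction and its call with any 1 library left out. The same held under every scaling, filter and tool in which its gene was tested. Requiring at least 10 counts in every library left *GPR98*, *ROBO1*, *SHROOM3*, *DNAJA4* and the *KCNA3* identifier with an interaction of 3.15 untested. By class, *IRF4* was called in JVM2 as well without JVM2-2B17 replicate 2 (0.09) and *ZNF608* in MEC1 as well without MEC1-2B17 replicate 1 (-0.25).

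Genes present in only one of the deposited tables could not enter the interaction and were flagged as data outside the comparison. CPM in this paragraph are without TMM scaling. Of the 285 such genes in the MEC1 table with a mean of at least 2 CPM, 89 were higher and 132 lower in every MEC1-2B17 library than in any MEC1-CTRL library, that is 77.5% without overlap, against 56.4% of the genes in both tables. Among the 282 such genes of JVM2, 69 were higher and 142 lower in every JVM2-2B17 library (74.8%, against 44.7%).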

How the results depend on the processing

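Scaling, filtering and the test moved the number of genes with a called interaction from 4848 to between 3891 (MEC1 counts thinned to the JVM2 depth) and 5143 (each line fitted on its own). Opposite genes ranged from 745 to 1075 around 1004, with 333 to 527 higher and 412 to 548 lower in MEC1-2B17. Genes called in MEC1 only ranged from 1129 to 2114 and in JVM2 only from 1141 to 1665. Fitting each line on its own gave 2114 in MEC1 only and 1141 in JVM2 only. The near-equal numbers of 1580 and 1597 thus depend on fitting all libraries together. None of the counts of these classes left a range of 1.5 times the value given. DESeq2 shared 4617 interaction genes with edgeR and the thinned counts shared 3731. Interactions of at least 2-fold fell from 1242 to 568 when at least 10 counts were required in every library, which tests fewer genes (11422), and genes called in neither line rose from 282 to 532 when each line was fitted on its own, where the cause was not tested. With 1 library left out, interaction genes ranged from 4231 (without MEC1-CTRL replicate 2) to 5063 (without JVM2-2B17 replicate 2) and opposite genes from 823 to 1115. Of the values of named genes, 1355 of 1373 kept their direction and call in 10 alternatives and none reversed, and 1636 of 1656 did so with 1 library left out.

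Correlations between deviations of same-numbered libraries ran from -0.121 to 0.103, and those of differently numbered libraries from -0.127 to 0.181. Deviations from a mean of 3 libraries depend on each other, so these values cannot decide whether same-numbered libraries were handled together. A fit with the replicate number as a block within line called 5083 interaction genes and 1075 opposite genes, and 0.47 remained the interaction of *UGT2B17*. MEC1 was sequenced deeper, so a change of a given size is called more easily there, and genes absent from one table were not tested.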

Other observations

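Genes found in one table only hold several of high level. In JVM2, *BBOX1*, the last enzyme of carnitine synthesis, had a mean of 207 CPM in JVM2-CTRL and 27.9 in JVM2-2B17. *EDIL3*, a secreted adhesion protein, went from 97.3 to 42.9 CPM and *PRL*, prolactin, from 103 to 54.6 CPM. In MEC1, *PSAT1*, an enzyme of serine synthesis, had 509 CPM in MEC1-CTRL and 314 in MEC1-2B17, and *ERICH3* 133 and 51.4 CPM. Others were higher in the 2B17 arm, among them *MAGEA3* in JVM2 (87.2 to 106.8 CPM) and *LEPREL1* in MEC1 (130.6 to 155.5 CPM). These are means over 3 libraries without TMM scaling. They are given without a test of the difference between lines, since the other table does not list the gene.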
